A study of Mus musculus with 6 samples.

Results

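Cadherins and protocadherins are cell surface proteins built of repeated extracellular cadherin domains. They were taken here as every gene of the deposited table whose symbol is Cdh followed by a number, or starts with Pcdh, which gave 95 of 29955 genes. Of these, 24 were cadherins (5 type I, 13 type II and 6 others), 12 were single protocadherins and 59 were clustered protocadherins (15 in the a cluster, 22 in the b cluster and 22 in the g cluster). RNF40 is part of the ubiquitin ligase that places a single ubiquitin on histone H2B, and the study compared gene expression in mouse embryonic fibroblasts (MEFs) with and without it. RNA was sequenced from 3 samples of Rnf40+/+ MEFs and 3 samples of Rnf40-/- MEFs, all at passage 3. The Rnf40-/- cells came from embryos homozygous for an Rnf40 allele with loxP sites around exons 3 and 4, which also carried a tamoxifen-inducible Cre recombinase expressed from the Rosa26 locus. They were exposed to 250 nM 4-hydroxytamoxifen (4-OHT) for 5 days and then grown for 3 days without it. Whether the Rnf40+/+ cells carried the Cre or received 4-OHT is not given in the sources used here, so that loss of Rnf40, the Cre and the drug cannot be told apart. Nothing says that replicates came from separate embryos or cultures, and p-values therefore measure only the spread between these samples, which may be technical.

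The values deposited by the authors, reads scaled by library, are called normalized counts below. Reads on genes came to 17053436, 20781071 and 26344170 in the Rnf40+/+ libraries, and to 18741606, 18115481 and 20495627 without Rnf40. The limit of detection was set at 3 reads, which equals a normalized count of 2.40 in the deepest library and 3.58 in the shallowest. The targeted gene was lower in every Rnf40-/- library. Rnf40 had 1278, 1195 and 1096 normalized counts in Rnf40+/+ MEFs and 439, 519 and 487 in Rnf40-/- MEFs (log2 fold change -1.30, standard error 0.09, adjusted p = 4.25e-07, from limma as below), counted over the whole gene and not over the deleted exons alone.

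Classical cadherins of types I and II hold cells together through calcium-dependent binding of their outer domains, and their cytoplasmic tails bind catenins, which connect them to actin. Protocadherins share the outer domains but lack the catenin-binding tail. The single protocadherins of the delta-1 and delta-2 groups each have their own locus, whereas the clustered genes stand in neighbouring arrays, where each variable exon has a promoter of its own. Variable exons of the a and the g cluster are spliced to constant exons shared within the cluster, while b genes consist of a single exon, and neurons use varied combinations of them as a label of cell identity. Fibroblasts are known for N-cadherin (Cdh2) and cadherin-11 (Cdh11), and epithelia for E-cadherin (Cdh1).

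The test was limma on log2(normalized count + 1), adjusted by Benjamini-Hochberg over all 16378 genes that had enough reads. A gene was called higher or lower in Rnf40-/- MEFs when its adjusted p was under 0.05, and every fold change below is on this scale, as Rnf40-/- minus Rnf40+/+. Where 6 values of a gene are given, those of Rnf40+/+ replicates 1 to 3 come first and those of Rnf40-/- replicates 1 to 3 follow. A range after a semicolon gives the log2 fold change with single libraries left out, for genes where it changed sign or moved by over 1.5 times. Of the 95 members, 67 had enough reads for the test. Among those 67, 10 were called higher and 11 lower, while 23.3% of all genes tested were called higher and 24.1% lower. With an absolute log2 fold change above 1 as well, 5 members were called higher and 7 lower, against 5.13% and 5.72% of all genes. With the cutoffs of the study (mean above 15, unadjusted p under 0.05 and the same fold change), applied to the limma values and not to the study's own test, 4 members were higher and 6 lower, against 4.25% and 5.70%. The values of the genotypes did not overlap for 12 members that were higher and 24 that were lower, against 27.8% and 28.7% of all genes. The median log2 fold change of all genes tested was -0.00350, practically 0. None of these shares was tested against that of all genes. Of the cadherins tested, 5 of 17 were higher and 4 lower, of the single protocadherins 5 of 11 higher and 1 lower, and of the b genes 6 of 9 lower. In the a and g clusters no gene passed the threshold. In bulk RNA, fewer cells of a type and less RNA per cell cannot be told apart.

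Some Rnf40+/+ libraries stood apart from the others of their group in markers of other cell types and in a few members. Rnf40+/+ replicate 1 had a summed level of 7 myoblast markers of 1435, against 214 and 197 in replicates 2 and 3, of which Actc1 made up 937. It also had the highest Cdh20, with 44.2, 3.06 and 3.99 in the Rnf40+/+ libraries, and the highest Cdh24, with 131, 56.1 and 55.1. Rnf40+/+ replicate 3 had a summed level of 8 macrophage markers of 9476, against 5244 and 5850, and the highest Cdh3 and Pcdhgb2. The part of these libraries in each result is given below, where leaving one out changed a call.

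Type I cadherins moved in opposite directions. Cdh2, the N-cadherin of mesenchyme and neural tissue (chr18:16747386-16967755 in mm9, minus strand), had normalized counts of 5282, 5949 and 4904 with Rnf40 and 8559, 8755 and 8799.9 without. Every Rnf40-/- library lay above every Rnf40+/+ library. The means were 5378 ± 529 and 8705 ± 128 (SD, n = 3), and the difference passed the test (log2 fold change 0.70, standard error 0.07, adjusted p = 1.29e-05). Cdh3, the P-cadherin of basal epithelium and placenta (chr8:109034791-109080808, plus strand), had 737, 737 and 1413 in Rnf40+/+ and 457, 384 and 434 in Rnf40-/- MEFs. It was lower in every Rnf40-/- library, although replicate 3 of the Rnf40+/+ group was far above the others (log2 fold change -1.11, standard error 0.20, adjusted p = 0.000743). Without that library Cdh3 was still called lower (log2 fold change -0.80, adjusted p = 1.58e-05). Cdh4, the R-cadherin of retina and kidney, had 32.2, 41.8 and 71.9 and 27.5, 15.7 and 26.4, without overlap, and was called lower (log2 fold change -0.997, standard error 0.34, adjusted p = 0.0310). That call was the least firm of the class. It was lost without Rnf40+/+ replicate 2 (log2 fold change -1.06, adjusted p = 0.0636), without Rnf40+/+ replicate 3 (log2 fold change -0.68, adjusted p = 0.127) and without Rnf40-/- replicate 2 (log2 fold change -0.75, adjusted p = 0.122). It was also lost with no filter on low counts (log2 fold change -0.997, adjusted p = 0.0512). The remaining type I genes were near the limit of detection in all libraries. Cdh1, next to Cdh3 on chromosome 8, had 2.39, 4.08 and 3.19 and 7.14, 2.09 and 1.89, and Cdh15, the M-cadherin of myoblasts, 1.19, 0 and 3.19 and 0, 3.13 and 0. A difference in either was not detectable at this depth.

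Among type II cadherins, Cdh11 was the one with by far the most reads. This gene of mesenchyme and bone-forming cells (chr8:105156895-105309011, minus strand) had 14417, 15475 and 14003 in Rnf40+/+ and 7801, 8151 and 7754 in Rnf40-/- MEFs. The Rnf40-/- values were close together and all below the lowest Rnf40+/+ value. The means were 14632 ± 759 and 7902 ± 217 (SD, n = 3), and Cdh11 was called lower (log2 fold change -0.89, standard error 0.07, adjusted p = 6.88e-07). Several genes described here and below (Cdh4, Cdh10, Cdh24, Pcdh11x, Pcdh10, Pcdh17 and other members beyond the leading ones) were singled out after their values were seen. Cdh10, best known from brain, was called lower as well, with 320.1, 299 and 244 against 202, 224 and 148 (log2 fold change -0.60, standard error 0.16, adjusted p = 0.00983). Cdh5, the VE-cadherin of endothelial junctions (chr8:106625525-106668402, plus strand), was the type II gene called higher. It had 2.39, 5.10 and 0.799 normalized counts from 2, 5 and 1 reads in the Rnf40+/+ libraries and 31.6, 39.7 and 23.6 from 31, 38 and 25 reads in the Rnf40-/- libraries. Cdh5 was thus at or near the limit of detection in every Rnf40+/+ library and well above it in every Rnf40-/- library (log2 fold change 3.26, standard error 0.52, adjusted p = 0.000295). The size of this change rests on few reads, and with a pseudocount of 10 in place of 1 the log2 fold change was 1.70. With at least 10 reads required in every library, Cdh5 was not tested.

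Levels of other endothelial genes are given beside Cdh5, and their part in its change was not tested. Of 9 endothelial markers, 7 were tested, 2 were called higher and 1 lower, beside 23.3% and 24.1% of all genes, and the median log2 fold change was 1.09. Pecam1 had 4.78, 4.08 and 2.40 in Rnf40+/+ and 28.6, 35.5 and 18.9 in Rnf40-/- MEFs (log2 fold change 2.58, standard error 0.44, adjusted p = 0.000484), and Kdr had 21.5, 26.5 and 34.3 and 74.4, 117 and 62.3 (log2 fold change 1.56, standard error 0.28, adjusted p = 0.000705). Emcn went the other way, with 136, 158 and 84.6 and 46.9, 50.1 and 68.9 (log2 fold change -1.15, standard error 0.25, adjusted p = 0.00230). Among those not called, Tek had 115, 11.2 and 16.0 and 43.8, 73.1 and 68.0 (log2 fold change 1.09, standard error 0.64, adjusted p = 0.186), with Rnf40+/+ replicate 1 far above its group, and Esam had 3.58, 15.3 and 2.40 and 16.3, 13.6 and 17.9 (log2 fold change 1.41, standard error 0.58, adjusted p = 0.0625). Tek was called higher without Rnf40+/+ replicate 1 (log2 fold change 2.09, adjusted p = 0.000168) and rose less without Rnf40+/+ replicate 2 (log2 fold change 0.47, adjusted p = 0.599). Esam was called higher without Rnf40+/+ replicate 2 (log2 fold change 2.09, adjusted p = 0.00651), its highest Rnf40+/+ library, and in no other case of 1 library left out. Ecscr and Egfl7 were also tested and not called, and both were lower on average. Egfl7 had 39.4, 51.0 and 82.3 and 44.9, 35.5 and 37.8 (log2 fold change -0.48, standard error 0.28, adjusted p = 0.183). It was called lower without Rnf40+/+ replicate 1 (log2 fold change -0.71, adjusted p = 0.0472) and fell less without Rnf40+/+ replicate 3 (log2 fold change -0.19, adjusted p = 0.602). The summed level of the 9 markers was 474, 414 and 484 in Rnf40+/+ and 406, 464 and 420.2 in Rnf40-/- MEFs, and these ranges overlapped. Most of the sum in Rnf40+/+ MEFs came from Ecscr and Emcn. The marker with the most reads was Ecscr, with means of 183 and 135 (log2 fold change -0.39, standard error 0.20, adjusted p = 0.129). Without Rnf40+/+ replicate 3 its fall was smaller (log2 fold change -0.13, adjusted p = 0.519). Cldn5 had at most 3 reads in every library. Pcdh12, a single protocadherin of endothelium, had 2.39, 3.06 and 0 and 13.3, 2.09 and 9.44, too few reads for the test.

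The other type II genes gave no call. Cdh24 had 131, 56.1 and 55.1 and 43.8, 50.1 and 37.8, without overlap, but missed the threshold (log2 fold change -0.75, standard error 0.31, adjusted p = 0.0657). Much of its fall came from Rnf40+/+ replicate 1, and without that library it was smaller (log2 fold change -0.34, adjusted p = 0.279). It was called lower without Rnf40+/+ replicate 3 (log2 fold change -0.96, adjusted p = 0.0219), by the Wald test of DESeq2 (log2 fold change -0.87, adjusted p = 0.0337) and with a replicate block (log2 fold change -0.75, adjusted p = 0.0303). Cdh18 had 259, 211 and 208 and 211, 228 and 175, with overlapping values (log2 fold change -0.15, standard error 0.14, adjusted p = 0.422; between -0.23 without Rnf40-/- replicate 2 and -0.04 without Rnf40-/- replicate 3). Cdh6, Cdh8 and Cdh19 had mean normalized counts between 12.6 and 30.7, and their fold changes were not stable. With single libraries left out, Cdh6 (0.31) lay between 0.03 without Rnf40+/+ replicate 2 and 0.64 without Rnf40+/+ replicate 1. Cdh8 (-0.13) changed sign, between -0.70 without Rnf40+/+ replicate 1 and 0.40 without Rnf40+/+ replicate 3, and Cdh19 (0.68) lay between 0.18 without Rnf40+/+ replicate 3 and 1.00 without Rnf40+/+ replicate 1. Cdh7, Cdh9, Cdh12, Cdh20 and Cdh22 had too few reads for the test. Cdh22 had at most 3 reads in every library.

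Of the 6 cadherins outside the classical types, 3 were called higher and none lower, beside 23.3% and 24.1% of all genes tested. Cdh17, the liver-intestine cadherin (chr4:11685294-11745042, plus strand), had 47.8, 46.9 and 31.1 in Rnf40+/+ and 358, 327 and 316 in Rnf40-/- MEFs. No library of either group came near the other group. With means of 41.9 ± 9.36 and 334 ± 21.7 (SD, n = 3), the Rnf40-/- level was 7.95 times that of Rnf40+/+ MEFs (log2 fold change 2.99, standard error 0.18, adjusted p = 1.81e-07). Cdh26, known from epithelium of the digestive tract (chr2:178165236-178222071, plus strand), had 107, 117 and 157 and 324, 351 and 346. It too was higher in every Rnf40-/- library, at 2.68 times the Rnf40+/+ level (log2 fold change 1.43, standard error 0.15, adjusted p = 9.68e-06). Cdh23, which forms the tip links of sensory hair cells, had 15.5, 26.5 and 35.1 and 51.0, 63.7 and 57.6 and was called higher (log2 fold change 1.19, standard error 0.30, adjusted p = 0.00641). Its partner in those links, Pcdh15, had overlapping values of 35.8, 23.5 and 24.8 and 25.5, 16.7 and 25.5 (log2 fold change -0.30, standard error 0.31, adjusted p = 0.459; between -0.41 without Rnf40+/+ replicate 2 and -0.11 without Rnf40-/- replicate 2). Cdh13, the cadherin held in the membrane by a lipid anchor, had the most reads of the class, with 862, 897 and 651 and 991, 987 and 848. The groups overlapped and the difference missed the threshold (log2 fold change 0.24, standard error 0.12, adjusted p = 0.112). With a replicate block Cdh13 was called higher (log2 fold change 0.24, adjusted p = 0.0189), although replicate numbers did not pair the samples, and without Rnf40+/+ replicate 3 the difference was smaller (log2 fold change 0.10, adjusted p = 0.399). Cdh16, the kidney cadherin, had 50.2, 52.0 and 96.6 and 65.3, 88.7 and 106 (log2 fold change 0.42, standard error 0.27, adjusted p = 0.226), and was called higher without Rnf40+/+ replicate 3 (log2 fold change 0.72, adjusted p = 0.0231) but changed less without Rnf40+/+ replicate 1 (log2 fold change 0.26, adjusted p = 0.479). Cdh29, a symbol that RefSeq gives as a synonym of Cdhr4, has an entry beside that of Cdhr4 in the deposited table, so reads of this locus may be divided between them. Its values were 8.36, 4.08 and 10.4 and 10.2, 18.8 and 17.0 (log2 fold change 0.96, standard error 0.47, adjusted p = 0.111; between 0.62 without Rnf40+/+ replicate 2 and 1.21 without Rnf40-/- replicate 1).

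Setting genes against each other needs values per kb of annotated exon. In Rnf40+/+ MEFs the mean level was 3470.5 ± 180.1 normalized counts per kb for Cdh11, 667 ± 65.6 for Cdh2 and 241 ± 97.6 for Cdh3 (SD, n = 3). Next came Cdh10 with 81.0 ± 11.1 and Cdh13 with 72.0 ± 11.958 per kb, which did not differ beyond their spread. In Rnf40-/- MEFs Cdh11 was still first with 1874 ± 51.4 per kb, but Cdh2 had moved closer with 1079 ± 15.9. Cdh26 with 115 ± 4.72 and Cdh3 with 106 ± 9.32 per kb followed, within their spread of each other. The ratio of Cdh2 to Cdh11 per kb came to 0.192, 0.201 and 0.183 with Rnf40 and 0.573, 0.561 and 0.593 without it. Within each genotype the ratio hardly varied, and the genotypes were far apart. The summed normalized count of all 24 cadherins, not divided by length, was 22399, 23984 and 21954 in Rnf40+/+ and 19214, 19785 and 19175 in Rnf40-/- MEFs, lower in every Rnf40-/- library. Of this sum, Cdh11 made up 64.4%, 64.5% and 63.8% with Rnf40 and 40.6%, 41.2% and 40.4% without. The share of Cdh2 was 23.6%, 24.8% and 22.3% with Rnf40 and 44.5%, 44.3% and 45.9% without. The sum thus mostly shows Cdh11 and Cdh2 and not the cadherins as a class.

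**Figure D1:**
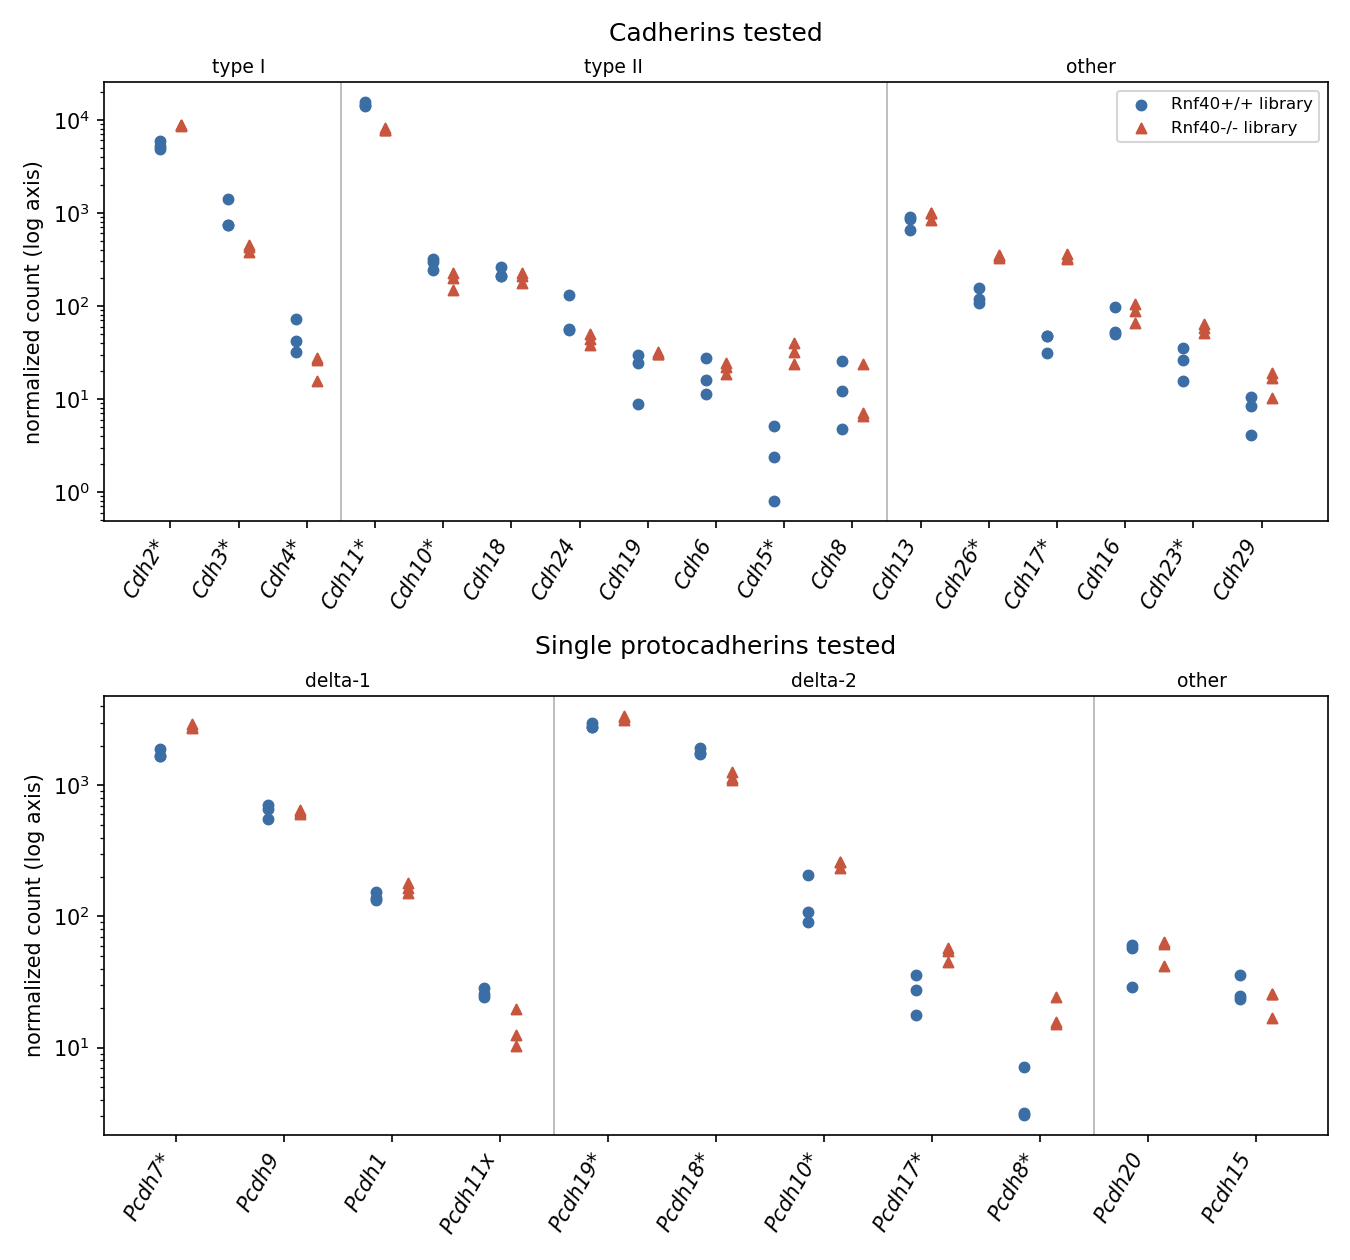
Normalized counts (log axis) of the cadherins and single protocadherins with enough reads for the test, with a point for each Rnf40+/+ library (circles) and each Rnf40-/- library (triangles) and an asterisk at genes with an adjusted p under 0.05. Cdh17 and Cdh5 are far higher in all 3 Rnf40-/- libraries, while Cdh11 and Cdh2 approach each other in the Rnf40-/- libraries.

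Of the delta-1 protocadherins, Pcdh7 was called and the other members were not. Pcdh7 (chr5:58109260-58520590, plus strand) had 1671, 1884 and 1681 normalized counts in Rnf40+/+ and 2744, 2917 and 2767 in Rnf40-/- MEFs. Each Rnf40-/- library was above each Rnf40+/+ library, with means of 1745 ± 120.0 and 2809 ± 93.9 (SD, n = 3), and Pcdh7 was called higher (log2 fold change 0.69, standard error 0.07, adjusted p = 8.07e-06). Pcdh9 had 713, 663 and 551 and 645, 606 and 629.8, with overlapping values (log2 fold change -0.03, standard error 0.10, adjusted p = 0.847; between -0.13 without Rnf40+/+ replicate 3 and 0.05 without Rnf40+/+ replicate 1), and so did Pcdh1, with 133, 139 and 153 and 152, 179.5 and 164 (log2 fold change 0.22, standard error 0.14, adjusted p = 0.200). Pcdh11x had 28.7, 24.5 and 25.6 and 10.2, 12.5 and 19.8. It did not overlap between genotypes and just missed the threshold (log2 fold change -0.89, standard error 0.34, adjusted p = 0.0503), and was called lower without Rnf40-/- replicate 3 (log2 fold change -1.14, adjusted p = 0.0293), with at least 10 reads in every library (log2 fold change -0.89, adjusted p = 0.0333) and with a pseudocount of 10 (log2 fold change -0.60, adjusted p = 0.0409). Without any other library it was not called, with the smallest fall without Rnf40-/- replicate 1 (log2 fold change -0.70, adjusted p = 0.163).

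All 5 delta-2 protocadherins passed the test, 4 of them higher and 1 lower in Rnf40-/- MEFs, and in none did the genotypes overlap. Of all genes tested, 23.3% were called higher and 24.1% lower, and 27.8% and 28.7% were higher and lower without overlap. Pcdh8, known from the early mesoderm of the embryo (chr14:80166587-80171119, minus strand), had 7.17, 3.06 and 3.19 normalized counts from 6, 3 and 4 reads in Rnf40+/+ and 24.5, 15.7 and 15.1 from 24, 15 and 16 reads in Rnf40-/- MEFs. It was near the limit of detection in the Rnf40+/+ libraries and low but above it in the Rnf40-/- libraries (log2 fold change 1.87, standard error 0.47, adjusted p = 0.00638). With a pseudocount of 10 its log2 fold change was 0.97, and with at least 10 reads required in every library Pcdh8 was not tested. Pcdh10, which binds an actin regulator complex, had 208, 108 and 91.0 and 235, 259 and 259 (log2 fold change 0.97, standard error 0.24, adjusted p = 0.00560). Replicate 1 of the Rnf40+/+ group was the highest of its group and came near the Rnf40-/- values. Pcdh17 had 27.5, 35.7 and 17.6 and 44.9, 54.3 and 57.6 (log2 fold change 0.98, standard error 0.29, adjusted p = 0.0152). Its call was lost without Rnf40-/- replicate 2 (log2 fold change 0.95, adjusted p = 0.0537) and without Rnf40-/- replicate 3 (log2 fold change 0.91, adjusted p = 0.0613). Pcdh19, an X-linked gene known from inherited epilepsy, had 2783, 3015 and 2765 and 3299.6, 3384 and 3140.4, a small difference that was called higher (log2 fold change 0.20, standard error 0.06, adjusted p = 0.0237). That call was lost without Rnf40+/+ replicate 1 (log2 fold change 0.18, adjusted p = 0.0640), Rnf40-/- replicate 1 (log2 fold change 0.19, adjusted p = 0.0906) or Rnf40-/- replicate 2 (log2 fold change 0.17, adjusted p = 0.0960). Pcdh18 (chr3:49547218-49561238, minus strand) went the other way. It had 1764, 1927 and 1742 in Rnf40+/+ and 1137, 1254 and 1097 in Rnf40-/- MEFs, lower in every Rnf40-/- library (log2 fold change -0.64, standard error 0.08, adjusted p = 2.86e-05).

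Per kb of exon, the order of the leading single protocadherins changed between genotypes. Pcdh18 was first in Rnf40+/+ MEFs with 350.5 ± 19.6 normalized counts per kb (SD, n = 3), and Pcdh7 with 281 ± 19.3 and Pcdh19 with 277 ± 13.6 were within their spread of each other. In Rnf40-/- MEFs the order was Pcdh7 with 453 ± 15.1, Pcdh19 with 318 ± 11.998 and Pcdh18 with 225 ± 15.8 per kb, with gaps larger than the SDs. The summed normalized count of the 12 single protocadherins was 7433, 7883 and 7082 in Rnf40+/+ and 8395, 8762 and 8227 in Rnf40-/- MEFs, higher in each Rnf40-/- library. Pcdh20, of the remaining single genes, had overlapping values of 60.9, 57.1 and 28.7 and 64.2, 61.6 and 41.5 (log2 fold change 0.23, standard error 0.30, adjusted p = 0.556; between -0.10 without Rnf40+/+ replicate 3 and 0.43 without Rnf40-/- replicate 3). By limma neither Pcdh15 nor Pcdh20 had an unadjusted p under 0.05, and neither was called by edgeR or DESeq2.

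The promoters of the delta-2 genes are shown because every gene of this group passed the test, and they differ in their content of the dinucleotide CG, a feature the choice of members did not use. RefSeq promoter sequences of the GRCm38.p6 build were at hand for 23 of the 95 members, and the 250 bases before each start were read on the strand of the gene. The median over 32851 mouse promoters was 6 CG. The promoter of Pcdh18 (chr3:49757317-49757566, minus strand), the gene that fell, held 23 CG, and 13.3% of all promoters held as many or more. Pcdh10 (chr3:45378148-45378397, plus strand) held 22, Pcdh17 (chr14:84443313-84443562, plus strand) 21, Pcdh19 (chrX:133688994-133689243, minus strand) 16 and Pcdh8 (chr14:79771313-79771562, minus strand) 11, which 14.8%, 16.3%, 25.4% and 35.6% of all promoters reached. Each of them was thus above the median, the gene that fell as well as the genes that rose. The other called members with a promoter at hand held fewer CG, namely 7 for Pcdh7, 5 for Cdh23, 2 for Cdh10 and 0 for Cdh26 (chr2:178430265-178430514, plus strand). Members that were not called included promoters as rich, with 22 in Cdh24, 20 in Cdh8 and 18 in Pcdh9. Cdh26, with the fewest CG of the called members, was picked after these counts were seen. Capitals mark each CG.
Pcdh8: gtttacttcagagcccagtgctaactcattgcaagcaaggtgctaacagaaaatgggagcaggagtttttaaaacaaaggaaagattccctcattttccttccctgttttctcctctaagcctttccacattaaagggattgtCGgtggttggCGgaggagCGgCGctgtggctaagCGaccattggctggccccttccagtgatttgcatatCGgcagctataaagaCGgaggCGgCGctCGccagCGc
Pcdh10: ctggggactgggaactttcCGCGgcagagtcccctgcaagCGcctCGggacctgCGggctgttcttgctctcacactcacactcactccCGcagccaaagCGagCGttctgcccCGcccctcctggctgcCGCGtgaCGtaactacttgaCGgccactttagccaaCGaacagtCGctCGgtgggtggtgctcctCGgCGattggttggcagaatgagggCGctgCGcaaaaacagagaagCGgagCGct
Pcdh17: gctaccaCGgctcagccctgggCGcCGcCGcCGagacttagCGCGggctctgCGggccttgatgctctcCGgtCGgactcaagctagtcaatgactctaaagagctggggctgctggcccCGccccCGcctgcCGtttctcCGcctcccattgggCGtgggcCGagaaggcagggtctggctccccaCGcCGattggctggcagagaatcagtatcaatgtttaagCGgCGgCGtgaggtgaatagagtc
Pcdh18: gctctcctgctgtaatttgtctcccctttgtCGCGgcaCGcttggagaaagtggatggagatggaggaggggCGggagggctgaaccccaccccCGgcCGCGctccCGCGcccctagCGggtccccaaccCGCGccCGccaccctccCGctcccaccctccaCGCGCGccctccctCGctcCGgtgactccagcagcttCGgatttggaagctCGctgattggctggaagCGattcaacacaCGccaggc
Pcdh19: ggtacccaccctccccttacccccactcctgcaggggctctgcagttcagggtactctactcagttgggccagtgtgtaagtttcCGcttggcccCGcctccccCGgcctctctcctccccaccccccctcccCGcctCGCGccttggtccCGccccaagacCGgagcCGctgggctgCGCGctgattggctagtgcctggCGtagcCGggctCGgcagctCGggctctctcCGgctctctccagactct
Cdh26: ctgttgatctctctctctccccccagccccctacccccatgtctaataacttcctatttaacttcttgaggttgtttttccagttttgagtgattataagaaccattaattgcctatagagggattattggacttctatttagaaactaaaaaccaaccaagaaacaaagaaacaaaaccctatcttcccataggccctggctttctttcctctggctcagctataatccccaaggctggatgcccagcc

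The clustered protocadherins differed between their arrays, with the b cluster far lower in Rnf40-/- MEFs, the a cluster somewhat lower and the g cluster close to its Rnf40+/+ level. Sums over all genes of a cluster are given first, since single values of the a and g genes are uncertain. Annotated transcripts share sequence, namely 2861 bases at the 3′ ends of 3 transcripts of the a cluster and a stretch of 410 bases in 10 transcripts of the g cluster. How the authors counted reads that fit several transcripts is not stated, so a read of a constant exon may stand under several a or g genes, or be divided between them. If it stands under several, the sum of the a or g cluster counts it several times, so these sums are uncertain too. The b genes have no shared exon, though related b genes can resemble each other in sequence.

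**Figure D2:**
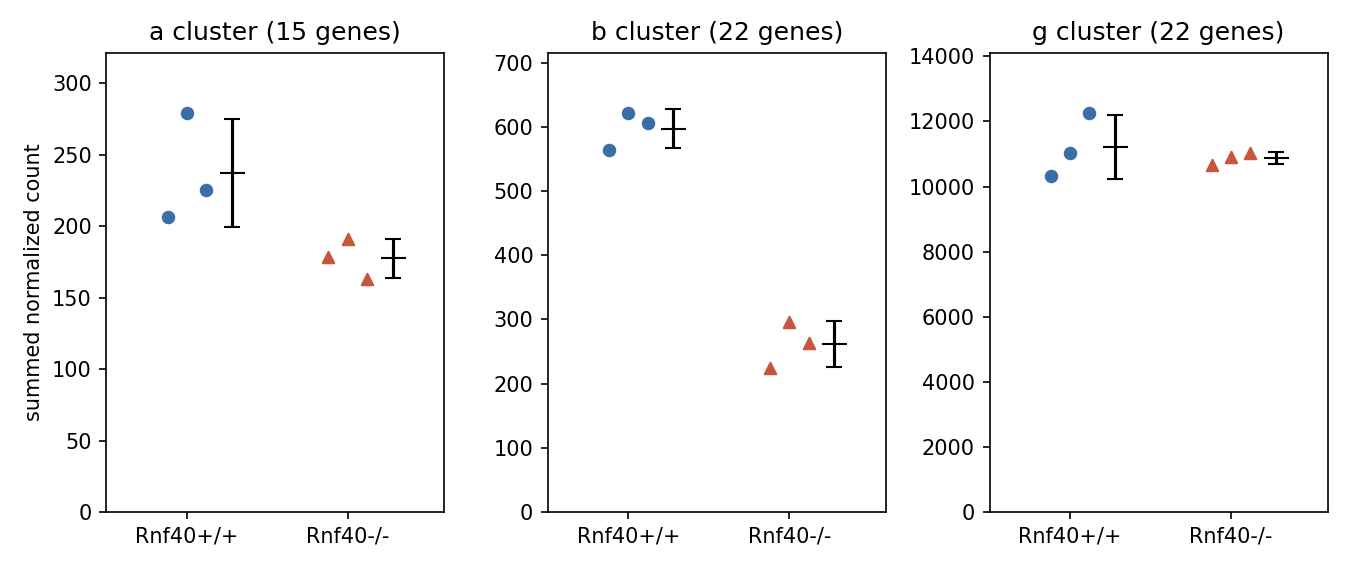
Summed normalized counts of the a, b and g clusters (vertical axes start at 0 and differ between panels) in each Rnf40+/+ library (circles) and each Rnf40-/- library (triangles), with the mean and SD of each group of 3 as a bar. The groups are apart for the b and a clusters and overlap for the g cluster.

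The b cluster sum was 564, 622 and 606 in Rnf40+/+ and 224, 296 and 263 in Rnf40-/- MEFs. With means of 597 ± 30.2 and 261 ± 36.1 (SD, n = 3), the Rnf40-/- sum was 43.8% of the Rnf40+/+ sum, a log2 ratio of -1.19. Even the highest Rnf40-/- sum was below the lowest Rnf40+/+ sum by more than the SD of either group. Of the 22 b genes, 9 had enough reads for the test and 6 of these were called lower, none higher, while 24.1% of all genes tested were called lower. All 9 had a negative log2 fold change, with a median of -1.21.

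Pcdhb17 and Pcdhb22 had the most reads of the b genes. Pcdhb17 (chr18:37644675-37647943 in mm9, plus strand) had 127, 149.9 and 173 in Rnf40+/+ and 39.8, 73.1 and 45.3 in Rnf40-/- MEFs (log2 fold change -1.53, standard error 0.23, adjusted p = 0.000210), and Pcdhb22 (chr18:37678007-37681073, plus strand) had 107, 145 and 149 and 48.9, 54.3 and 68.9 (log2 fold change -1.21, standard error 0.20, adjusted p = 0.000391). In neither gene did the genotypes overlap. Pcdhb20, which GENCODE annotates as a pseudogene, followed with 72.8, 55.1 and 39.9 and 20.4, 18.8 and 20.8 (log2 fold change -1.40, standard error 0.28, adjusted p = 0.00148). Pcdhb18 had 41.8, 52.0 and 39.1 and 12.2, 17.7 and 17.0 (log2 fold change -1.45, standard error 0.29, adjusted p = 0.00145). Both were again lower in all 3 Rnf40-/- libraries. Pcdhb14 had 17.9, 21.4 and 31.9 and 4.08, 11.5 and 1.89, the largest fall in fold of the b genes tested, but from few reads (log2 fold change -2.08, standard error 0.54, adjusted p = 0.00754, or a log2 fold change of -1.12 with a pseudocount of 10). Pcdhb19 had 21.5, 32.6 and 24.8 and 11.2, 9.39 and 14.2 (log2 fold change -1.11, standard error 0.34, adjusted p = 0.0187), and its call was lost without Rnf40+/+ replicate 2 (log2 fold change -0.95, adjusted p = 0.0733) and without Rnf40-/- replicate 2 (log2 fold change -0.98, adjusted p = 0.0601). With at least 10 reads required in every library, Pcdhb14 and Pcdhb19 were not tested. The 3 other b genes tested were not called. Pcdhb16 had 35.8, 48.9 and 44.7 and 25.5, 36.5 and 26.4 (log2 fold change -0.54, standard error 0.26, adjusted p = 0.111), Pcdhb3 17.9, 16.3 and 26.4 and 9.18, 15.7 and 11.3 (log2 fold change -0.70, standard error 0.37, adjusted p = 0.146), and Pcdhb5 31.1, 32.6 and 27.9 and 19.4, 36.5 and 26.4 (log2 fold change -0.19, standard error 0.30, adjusted p = 0.628; between -0.41 without Rnf40-/- replicate 2 and 0.03 without Rnf40-/- replicate 1).

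On the plus strand of chromosome 18 the b genes lie in the order of their numbers. The 9 genes from Pcdhb14 to Pcdhb22 (chr18:37607311-37681073) held all 6 that were called, but also 7 of the 9 that had enough reads for the test, so where the calls lie follows in large part from where the reads lie. This division was made after the values were seen. Of the other 3 genes of that stretch, Pcdhb16 was tested and not called, and Pcdhb15 and Pcdhb21 had too few reads. With no filter on low counts both were called lower (log2 fold change -2.23, adjusted p = 0.00661 for Pcdhb15 and log2 fold change -2.61, adjusted p = 0.00298 for Pcdhb21), and so was Pcdhb12 (log2 fold change -1.76, adjusted p = 0.0478). The summed level of the stretch was 463, 519 and 519 in Rnf40+/+ and 165, 222 and 198 in Rnf40-/- MEFs. In the 13 genes from Pcdhb1 to Pcdhb13 (chr18:37424652-37605863) 2 were tested and none called. Their sum was 100.3, 103 and 87.0 and 59.1, 74.1 and 65.1, without overlap between genotypes. The Rnf40-/- sums were thus 39.0% of the Rnf40+/+ sums in the stretch with most of the reads and 68.3% in the other. Pcdhb1 had no read in any library and Pcdhb8 at most 3.

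**Figure D3:**
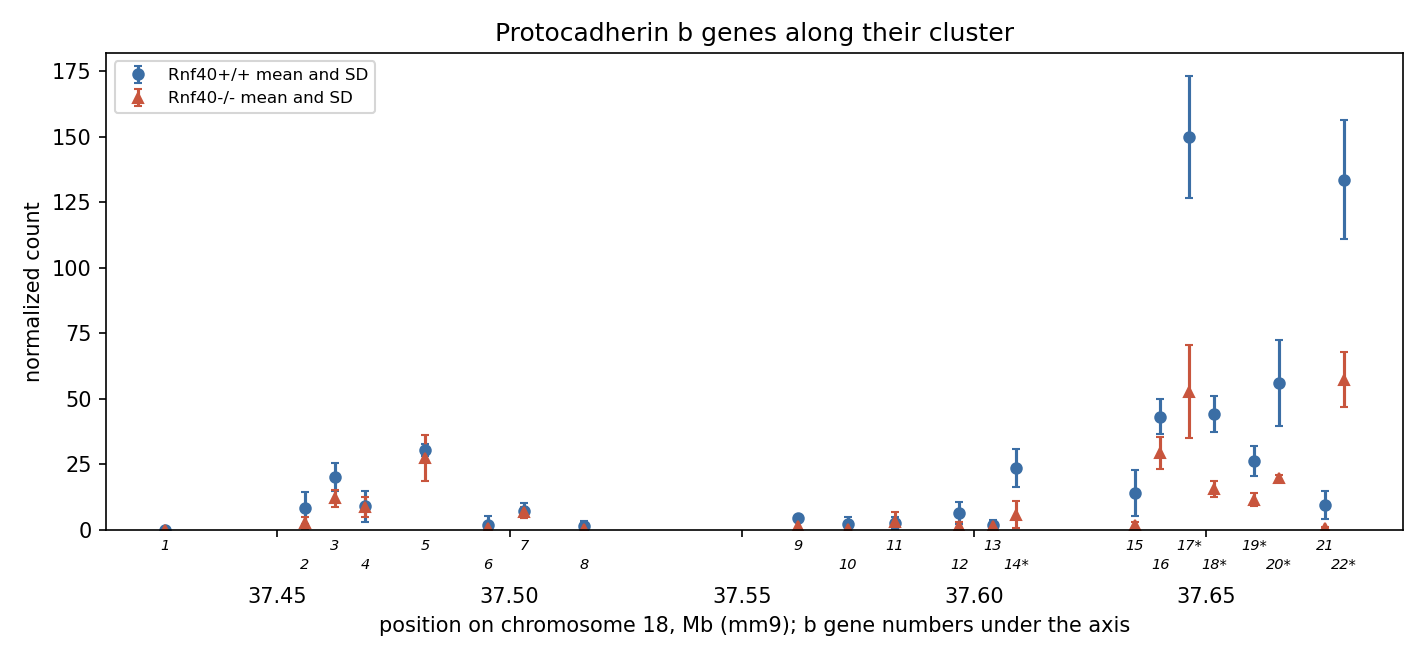
Mean and SD (n = 3 libraries) of the normalized counts of each b gene at its position on chromosome 18 of mm9, for Rnf40+/+ (circles) and Rnf40-/- MEFs (triangles), with the number of the b gene under the axis and an asterisk at those with an adjusted p under 0.05. The 6 genes with an asterisk lie between Pcdhb14 and Pcdhb22, as do 7 of the 9 genes with enough reads.

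Genes of the a cluster had few reads. Their sum was 207, 279 and 225 in Rnf40+/+ and 178, 191 and 163 in Rnf40-/- MEFs, from 173, 274 and 282 and 175, 183 and 173 reads. The groups did not overlap, but the gap between them was smaller than the SD of the Rnf40+/+ group. The means were 237 ± 37.8 and 178 ± 13.8 (SD, n = 3), so that the Rnf40-/- sum was 74.9% of the Rnf40+/+ sum. Of the 15 genes, 8 were tested and none was called by limma, edgeR or DESeq2, nor did any have an unadjusted p under 0.05 by limma. The median log2 fold change of the 8 was -0.37, and 7 of the 8 were negative. The entry Pcdha4-g, which RefSeq lists as a synonym of a gene spanning from the a into the g cluster, had 35.8, 39.8 and 33.5 and 40.8, 44.9 and 39.7 (log2 fold change 0.20, standard error 0.23, adjusted p = 0.511). Pcdhac2, a c-type variant, had 16.7, 58.1 and 42.3 and 15.3, 31.3 and 18.9, with overlapping values and the widest spread of the cluster (log2 fold change -0.71, standard error 0.44, adjusted p = 0.206). It was called lower without Rnf40+/+ replicate 1, its lowest Rnf40+/+ library (log2 fold change -1.21, adjusted p = 0.0128), while without Rnf40+/+ replicate 2 the fall was smaller (log2 fold change -0.34, adjusted p = 0.588). Pcdha1 had 17.9, 21.4 and 18.4 and 15.3, 10.4 and 15.1 (log2 fold change -0.48, standard error 0.34, adjusted p = 0.272; between -0.57 without Rnf40-/- replicate 1 and -0.32 without Rnf40-/- replicate 2).

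The g cluster had the highest summed count of the clusters, and its sum differed least between the genotypes. Reads shared by its genes may have been counted more than once, so neither its rank nor its small difference is certain. Its sum was 10321, 11026 and 12264 in Rnf40+/+ and 10658, 10923 and 11026 in Rnf40-/- MEFs. All 3 Rnf40-/- sums lay within the range of the Rnf40+/+ sums. The means were 11204 ± 984 and 10869 ± 190.2 (SD, n = 3), a log2 ratio of -0.04, which became 0.03 without Rnf40+/+ replicate 3. All 22 genes were tested and none was called by limma, while 3 had an unadjusted p under 0.05, all lower. By edgeR and DESeq2 none was called either. Pcdhgc3, the c-type gene with the most reads of the cluster, had 2265, 2523 and 2492 and 2569.6, 2733 and 2600.3 (log2 fold change 0.12, standard error 0.07, adjusted p = 0.162; between 0.07 without Rnf40+/+ replicate 1 and 0.15 without Rnf40+/+ replicate 2). Each Rnf40-/- library was above each Rnf40+/+ library, but by less than the test required. Pcdhgb2 had 634, 771 and 1152 and 877, 1080.2 and 1117, with overlapping values (log2 fold change 0.30, standard error 0.17, adjusted p = 0.174), and was called higher without Rnf40+/+ replicate 3 (log2 fold change 0.54, adjusted p = 0.00115) and with a replicate block (log2 fold change 0.30, adjusted p = 0.0145). Without Rnf40+/+ replicate 1 the difference was smaller (log2 fold change 0.11, adjusted p = 0.561). Pcdhga3, next in reads, had 479, 489 and 561 and 430.3, 519 and 533 (log2 fold change -0.05, standard error 0.11, adjusted p = 0.738; between -0.11 without Rnf40-/- replicate 3 and 0.05 without Rnf40-/- replicate 1).

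Of all 22 g genes, 19 had a negative and 3 a positive log2 fold change. Without overlap between the genotypes 8 were lower and 1 higher, beside 28.7% and 27.8% of all genes tested. Apart from Pcdhgc3 and Pcdhgb2, the g cluster holds 20 genes, which were grouped after their values were seen. This grouping took out 2 of the 3 genes with a positive change, so the values of the 20 follow in part from the choice. Of the 20, 19 had a negative log2 fold change, with a median of -0.13, and 8 were lower without overlap between the genotypes. Their sum was 7421, 7732 and 8621 in Rnf40+/+ and 7211, 7109 and 7309 in Rnf40-/- MEFs, without overlap, and the Rnf40-/- sum was 91.0% of the Rnf40+/+ sum. Rnf40+/+ replicate 3 had the highest sum. Without that library Pcdhga3, Pcdhga8, Pcdhga9, Pcdhga11 and Pcdhgb8 changed to a positive log2 fold change. If the 20 genes share reads of the constant exons, their values are not separate measurements. Pcdhgb5 (log2 fold change -0.20, standard error 0.12, adjusted p = 0.174) was called lower without Rnf40+/+ replicate 1 (log2 fold change -0.31, adjusted p = 0.0361) but fell less without Rnf40+/+ replicate 3 (log2 fold change -0.10, adjusted p = 0.488). Pcdhgc5 (log2 fold change -0.22, standard error 0.09, adjusted p = 0.0645) was called lower without Rnf40-/- replicate 2 (log2 fold change -0.28, adjusted p = 0.0491) and in no other case of 1 library left out.

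Among the proteins that attach cadherins to the cytoskeleton, 12 of 13 genes of a list of catenins and their partners were tested, 8 were higher and 3 lower, with a median log2 fold change of 0.57. For this and all following lists, 23.3% of all genes tested were called higher and 24.1% lower, and no list was tested against these shares. Mllt4, the afadin that links nectins to actin, had 1101, 1208 and 1061 in Rnf40+/+ and 3039.6, 3081 and 2857 in Rnf40-/- MEFs (log2 fold change 1.41, standard error 0.07, adjusted p = 4.53e-08). Ctnnd2, the neural delta-catenin, had 257, 309 and 255 and 576, 597 and 626 (log2 fold change 1.13, standard error 0.10, adjusted p = 3.58e-06). Both were far higher in all Rnf40-/- libraries. Ctnna2, the neural alpha-catenin, was lower in all of them, with 291, 283 and 256 and 123, 122 and 142 (log2 fold change -1.10, standard error 0.13, adjusted p = 2.39e-05). The nectins, which form junctions together with cadherins, had 2 of 4 genes lower and none higher, with a median of -0.24. Pvrl1 fell (log2 fold change -0.36, standard error 0.07, adjusted p = 0.00101), and so did Pvrl2 (log2 fold change -0.45, standard error 0.13, adjusted p = 0.0122). Without Rnf40+/+ replicate 3 the fall of Pvrl2 was smaller but still called (log2 fold change -0.26, adjusted p = 0.0119).

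A list of 18 genes covered atypical cadherins outside the 95 members, such as Fat, Dachsous, Celsr, calsyntenin and Cdhr genes. It also held Fjx1, which is not a cadherin. Of the 18, 17 were in the table and 11 tested, including Fjx1, which was not called (log2 fold change -0.16, standard error 0.07, adjusted p = 0.0895). Among the 11, 5 were higher (23.3% of all genes) and 1 lower (24.1% of all genes), with a median log2 fold change of 0.47. Clstn1, a calsyntenin, had 1268, 1508 and 1249 and 2648, 2504 and 2644 (log2 fold change 0.96, standard error 0.08, adjusted p = 1.93e-06). Celsr2 had 25.1, 25.5 and 39.9 and 57.1, 79.3 and 63.3 and was higher (log2 fold change 1.136, standard error 0.26, adjusted p = 0.00337). Celsr3, of the same family of large receptors with cadherin domains, had 53.7, 35.7 and 33.5 and 19.4, 16.7 and 18.9 and was the gene that was lower (log2 fold change -1.09, standard error 0.29, adjusted p = 0.00846). Of the genes for the cleavage and turnover of cadherins, the protease Adam10 rose (log2 fold change 0.60, standard error 0.06, adjusted p = 8.22e-06) and Psenen fell (log2 fold change -0.56, standard error 0.10, adjusted p = 0.000528).

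All 6 repressors of Cdh1 on the list were lower in Rnf40-/- MEFs, beside 24.1% of all genes, with a median log2 fold change of -0.40, while Cdh1 itself stayed near the limit of detection. Snai2 had 1658, 1773 and 1568 in Rnf40+/+ and 761, 765 and 749 in Rnf40-/- MEFs (log2 fold change -1.13, standard error 0.07, adjusted p = 2.17e-07), and Snai1 had 727, 769.9 and 942 and 389.5, 428 and 449 (log2 fold change -0.94, standard error 0.11, adjusted p = 2.13e-05). Twist2 had a smaller fall (log2 fold change -0.49, standard error 0.08, adjusted p = 0.000488). The genotypes did not overlap in any of these 3 genes. Zeb2 (log2 fold change -0.28) lost its call without Rnf40+/+ replicate 1 (log2 fold change -0.23, adjusted p = 0.0526) or 2 (-0.24, 0.0562). So it did without Rnf40-/- replicate 3 (log2 fold change -0.255, adjusted p = 0.0555). Twist1 (log2 fold change -0.23) lost its call without Rnf40-/- replicate 1 (log2 fold change -0.24, adjusted p = 0.0584) or 3 (-0.18, 0.0871). Of 14 genes for proteins that shape the protocadherin clusters (CTCF, cohesin and its loaders, SMCHD1, SETDB1, WIZ and DNA methyltransferases), 3 were higher and 2 lower, beside 23.3% and 24.1% of all genes, with a median of 0.12. Dnmt1 fell (log2 fold change -0.42, standard error 0.08, adjusted p = 0.000718). Setdb1 was called higher (log2 fold change 0.23, standard error 0.07, adjusted p = 0.0258). The cohesin subunits Smc1a (log2 fold change -0.27, standard error 0.07, adjusted p = 0.00954) and Rad21 (log2 fold change 0.26, standard error 0.08, adjusted p = 0.0167) moved in opposite directions by small amounts. The call of Smc1a was lost without Rnf40-/- replicate 2 (log2 fold change -0.22, adjusted p = 0.0522), and that of Rad21 without Rnf40-/- replicate 1 (log2 fold change 0.25, adjusted p = 0.0699) or replicate 2 (log2 fold change 0.27, adjusted p = 0.0509). Setdb1 lost its call without Rnf40+/+ replicate 2 (adjusted p = 0.0621) or 3 (0.0511), or Rnf40-/- replicate 1 (0.0705) or 2 (0.106). Its log2 fold change was then 0.19 to 0.235. Without Rnf40-/- replicate 1 or 2, only Stag2 of the 14 was called higher. Ctcf gained a call without Rnf40+/+ replicate 1 (adjusted p = 0.0427), Smchd1 without Rnf40+/+ replicate 2 (0.0381) and Dnmt3a without Rnf40-/- replicate 3 (0.0358), all higher. Of 8 genes for signalling partners of protocadherins, 5 were higher and 1 lower, beside 23.3% and 24.1% of all genes, with a median of 0.28. The largest differences were Cyfip2 (log2 fold change 1.41, standard error 0.16, adjusted p = 2.50e-05), the kinase Ptk2b (log2 fold change 0.84, standard error 0.07, adjusted p = 2.18e-06) and Abi1 (log2 fold change 0.63, standard error 0.06, adjusted p = 7.11e-06).

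The study's lists of genes with broad H3K4me3 and of EZH2 targets, in the copies at hand, held 7 and 5 of the 95 members. The paper cites an earlier source for the EZH2 targets, and it took the broad H3K4me3 genes from H3K4me3 peaks in MEFs. The copies may hold only some of the genes, and few members are listed, so the lists are not taken as evidence of a direction. Of the 7 members with broad H3K4me3 (Cdh2, Cdh11, Pcdh7, Pcdh10, Pcdh18, Pcdh19 and Pcdhgc3), all were tested, 4 were higher and 2 lower, beside 23.3% and 24.1% of all genes tested. Of the 5 members listed as EZH2 targets, Pcdh8, Pcdh10 and Pcdh17 were called higher, Pcdh1 was not called and Cdh22 had at most 3 reads in every library.

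Markers of cell types were measured beside these results, and their part in them was not tested. Their counts stand beside 23.3% of all genes called higher and 24.1% lower. All 9 fibroblast markers were lower in Rnf40-/- MEFs, with a median log2 fold change of -0.75. Their summed level was 689195, 724920.0 and 756271 in Rnf40+/+ and 416093, 412850.0 and 415986 in Rnf40-/- MEFs, with Fn1 as the gene with the most reads. The call of Vim (log2 fold change -0.26, standard error 0.10, adjusted p = 0.0483) held without Rnf40+/+ replicate 3 (log2 fold change -0.34, adjusted p = 0.00671). Without any other library it was lost, with log2 fold changes between -0.30 and -0.21 and adjusted p between 0.0526 and 0.179. Of 11 epithelial markers, 5 were tested and 1 was higher (Cldn4, log2 fold change 1.68, standard error 0.48, adjusted p = 0.0120), with a median of 0.37 over the 5. The epithelial sum was 472, 467 and 821 and 605, 846 and 811, mostly of Krt19, and Cldn7, Esrp1 and Grhl2 had at most 3 reads in every library. Krt19 was not called (log2 fold change 0.48, standard error 0.23, adjusted p = 0.107). It was called higher without Rnf40+/+ replicate 3 (log2 fold change 0.79, adjusted p = 0.00056) and without Rnf40-/- replicate 1 (log2 fold change 0.66, adjusted p = 0.0467). Without Rnf40+/+ replicate 1 it rose less (log2 fold change 0.25, adjusted p = 0.337). Among 7 myoblast markers 2 were tested, with Chrna1 higher (log2 fold change 1.23, standard error 0.15, adjusted p = 4.41e-05) and Des lower (log2 fold change -2.38, standard error 0.41, adjusted p = 0.000486), and Myod1, Myf5 and Pax7 had at most 3 reads. Their sum was 1435, 214 and 197 and 200.9, 209 and 223, the highest value being that of Rnf40+/+ replicate 1.

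Of 8 neural and glial markers 3 were tested and none was called by limma, edgeR or DESeq2, nor had any an unadjusted p under 0.05 by limma. The median log2 fold change of the 3 was 0.23. The sum of all 8 was 2793, 1397 and 1453 in Rnf40+/+ and 1422, 1435 and 1619 in Rnf40-/- MEFs, mostly of Tubb3, and Gfap had at most 3 reads in every library. Rnf40+/+ replicate 1 was again the highest. All 8 macrophage markers were tested, of which 2 were higher and 3 lower, with a median of -0.21. Ptprc (log2 fold change 1.37) and Cd14 (0.66) were called higher. Lyz2 (log2 fold change -1.18), Tyrobp (-1.71) and Fcer1g (-0.71) were called lower, and Csf1r, Cd68 and Emr1 were not called. The sum of the 8 was 5244, 5850.4 and 9476 and 3711, 3399 and 3771, mostly of Lyz2. This sum was lower in every Rnf40-/- library, with Rnf40+/+ replicate 3 the highest. That library was also the highest of all in Cdh3, Cdh4 and Pcdhgb2, and Rnf40+/+ replicate 1 the highest of all in Cdh20 and Cdh24.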

How the data were processed

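RNA-seq of 3 Rnf40+/+ and 3 Rnf40-/- MEF samples was taken as deposited. The signal computed by the authors is a read count per gene symbol, scaled by the DESeq size factor of the library, after mapping to mouse transcripts (mm9). The submitters' processing notes name Bowtie2 (version 2.1.0) and DESeq (version 1.14.0), and the counting tool is not given in the sources used here. Reads were recovered by dividing by the value of 1 read, and 100% of the positive results were whole within a tolerance of 0.1. How multi-mapping reads were treated is not given either.

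The function filterByExpr (edgeR version 4.0.16), grouped by genotype, kept 16378 genes. The main test was limma (version 3.58.1, lmFit, then eBayes with trend) with a model of genotype alone, on values with a pseudocount of 1 in log2, adjusted by Benjamini-Hochberg. The added 1 understates the change of genes with few reads. R (version 4.3.3) and Python (version 3.11.15) were used, and the tests were checked on simulated data. Alternatives were DESeq2 size factors and the Wald test of DESeq2 (version 1.42.0), TMM and the quasi-likelihood test of edgeR on the recovered reads, pseudocounts of 0.1 and 10, all genes unfiltered, genes with 10 or more reads throughout, a replicate block, and leaving out each library. The edgeR test called 3857 of the 16378 genes higher and 3940 lower.

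Members and lists were chosen with earlier results of these data known. The genes named are Rnf40, every member called with a log2 fold change beyond 1 in either direction, the 3 members with the highest mean in each of the cadherins, single protocadherins and a, b and g clusters, Cdh1, Cdh2, Cdh5, Cdh11, Cdh15 and Pcdh8, and up to 3 genes of each pathway list with the largest change among those called. Markers of cell types were a separate list. Other members were named after their values were seen. Positions and exon lengths are from GENCODE for mm9, and promoters from RefSeq (GRCm38.p6). Per-kb levels use the union of annotated exons. The ChIP-seq data of the study were not analysed here.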

Additional observations from a re-analysis of the deposited data

How the results depend on the processing

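Recomputing the size factors with DESeq2 gave the deposited ones, and no alternative moved the counts of members called by over 1.5 times: between 8 and 12 were higher and between 9 and 13 lower over all settings. With the replicate block, 12 members were higher and 12 lower. Replicate numbers did not pair the samples, since same-numbered libraries deviated together with correlations of 0.0354, 0.00265 and 0.0613 across genes, and not every library correlated best with its own number.

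The median log2 fold change of the cadherins, 0.31, was 0.12 with no filter. That of the a cluster, -0.37, was -0.21 with a pseudocount of 10, which shrinks the change of genes with few reads, and between -0.52 and -0.28 with single libraries left out. The median of the g cluster, -0.11, was between -0.16 and -0.05 with single libraries left out, and the log2 ratio of its sum, -0.04, between -0.10 and 0.03. The a sum ratio, -0.42, was between -0.51 and -0.28. The b sum ratio stayed between -1.29 and -1.09. Among the 67 members tested, none of the 21 called changed sign or moved by over 1.5 times with 1 library left out, while 36 of the 46 not called did, 10 of them in sign (Pcdhga3 to 0.0484 without Rnf40-/- replicate 1). Of 49 genes followed, 39 kept their call and direction wherever they were tested. Cdh5, Pcdh8, Pcdhb14 and Pcdhb19 were not tested with at least 10 reads in every library. Depth limits the genes with few reads most: 28 of the 95 members could not be tested.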
